A study of Mus musculus with 15 samples.

Results

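The elastic fibre and crosslinking genes were followed through the development of the mouse secondary palate. The group holds 10 genes, taken by symbol from the deposited count table of 54232 genes: Eln, Fbn1, Fbn2, Mfap5, Fbln5, Efemp2, Ltbp4, Emilin1, Lox and Loxl1. The samples were palatal shelves of wild-type (WT) mice at embryonic days 13.5, 14.5, 15.5 and 16.5 (E13.5, E14.5, E15.5 and E16.5) and at postnatal day 0 (P0). Each stage had 3 libraries, and each library held the palates of 3 pooled animals. All groups share the WT genotype, and they differ by age alone in the labels, which give no strain, sex or treatment. The sex make-up of the pools was not even: counts on the Y chromosome were 6150 to 13523 in E14.5 libraries and 128 to 314 in E16.5 libraries. They were 990 to 13449 at E13.5, 290 to 12119 at E15.5 and 133 to 3460 at P0. The part of sex in the differences between stages was not tested. Because the labels do not say whether the pools came from separate litters, p-values measure the spread between these pools, which may be technical in part.

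Elastic fibres are the extracellular fibres that let a tissue stretch and recoil. Cells first lay down microfibrils, thread-like polymers of fibrillin, and then deposit tropoelastin on them with the help of assembly proteins. Lysyl oxidases oxidise lysine side chains, which react to form the crosslinks that make elastin insoluble. The same enzymes crosslink fibrillar collagens. In the palate, shelves of neural crest mesenchyme covered by epithelium rise above the tongue and fuse at the midline, after which bone forms in the front and muscle in the back.

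Library totals ranged from 21.5 M to 69.0 M counts (median 61.0 M, M for 1e6), so that 3 counts correspond to 0.0435 to 0.140 counts per 1e6 counts (CPM). Depth went with age: totals were 63.7 to 69.0 M at E13.5 and E14.5, 58.2 to 63.6 M at E15.5 and 21.5 to 52.3 M at E16.5 and P0. Values are given as CPM with library sizes scaled by TMM, the trimmed mean of M values. Levels of different genes are compared only after division by exon length (CPM per kb of exon). Of 6 markers of fibroblasts and palate mesenchyme, none was at 0 in any stage. They are not particular to the palate, so their presence cannot tell it from other connective tissue. Their summed level was 2345 to 3813 CPM at E13.5, 1589 to 4031 CPM at E14.5 and 4746 to 6474 CPM at E15.5, most of it from Col3a1 (2072, 2001 and 4244 CPM on average). The sum was 5104 to 6134 CPM at E16.5 and 4878 to 6905 CPM at P0. The list did not move as one: from E13.5 to P0 Col3a1, Dcn and Lum rose, and Pdgfra, Prrx1 and Twist1 fell, by 1.06, 1.78 and 1.10 on the log2 scale. Some libraries stood apart within their stage. E14.5 replicate 1 was the lowest of its stage for 10 of the 10 genes and E14.5 replicate 3 the highest for 10 of 10, while E13.5 replicate 2 was the lowest of its stage for 10 of 10. E16.5 replicate 1 was the highest of its stage for 9 of 10, and P0 replicate 3, the shallowest library, was the lowest for 7 of 10. A list of 6 brain and choroid plexus markers summed to 4108 CPM in E14.5 replicate 1 against 2079 and 2008 CPM in replicates 2 and 3. It summed to 1734 CPM in E13.5 replicate 2 against 952.7 and 662.9 CPM in the other replicates. At the remaining stages it lay between 593 and 1289 CPM. Hoxa5, a gene of the trunk, was at 102 CPM in E14.5 replicate 1, 18.9 CPM in replicate 2 and 1.29 CPM in replicate 3. Later libraries differed in tissue make-up too. Skeletal muscle markers summed to 3691 CPM in P0 replicate 3 against 17440 and 20890 CPM in replicates 1 and 2. Epithelium markers summed to 2461 CPM there against 662 and 1083 CPM. In E16.5 replicate 1 the muscle sum was 21230 CPM against 10880 and 7644 CPM. Its endothelium sum was 691 CPM against 432 and 429 CPM. The part of such differences in tissue in the values below was not tested, and calls that changed without single libraries are given with the results. In RNA from whole palates, fewer cells of a type and less RNA per cell cannot be told apart.

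The step from E14.5 to E15.5 was the one step between neighbouring stages at which members passed the test. In edgeR's quasi-likelihood test with Benjamini-Hochberg adjustment over 22151 genes, 5 of 10 rose (Eln, Ltbp4, Lox, Loxl1 and Fbln5) and 0 fell, where 12.7% of all tested genes rose and 13.4% fell. The genes that rose cover the elastic core, 2 of the 4 assembly genes and both crosslinking enzymes. None of the 3 microfibril genes passed at this step in edgeR, but Mfap5 had a log2 fold change of 1.82 with adjusted p = 0.0544. DESeq2 called Mfap5, and the calls of Fbln5 and Loxl1 were lost without single libraries, so the threshold sets this division. From E13.5 to P0, 6 rose (the same 5 and Mfap5) and 1, Fbn2, fell, against 29.8% and 26.8% of tested genes, or 56.6% in either direction. Over the 5 stages together 7 of 10 differed, against 59.1% of tested genes, and Fbn1, Efemp2 and Emilin1 did not pass.

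**Figure D1:**
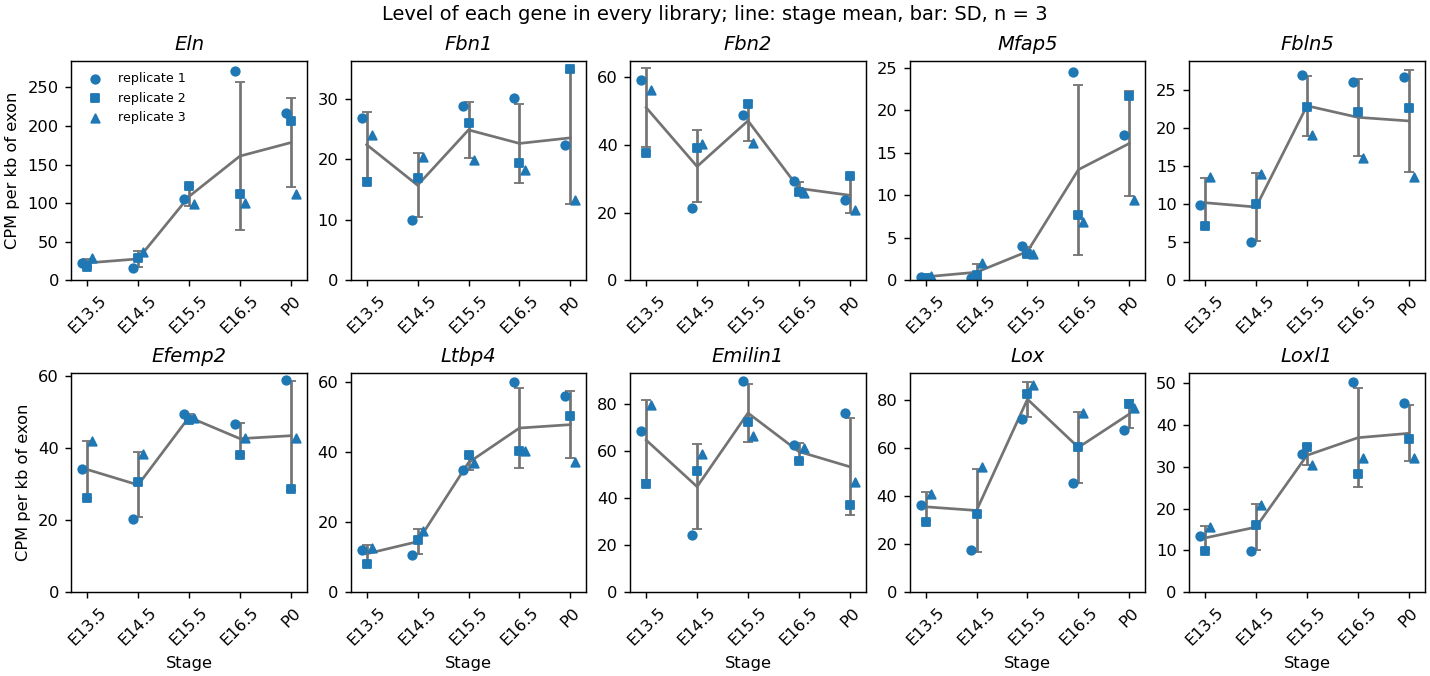
Level of the 10 genes in every library, in CPM per kb of exon, by stage; symbols mark replicates 1, 2 and 3, the line joins stage means and bars are SD (n = 3). Eln, Mfap5, Ltbp4 and Loxl1 are highest on average at P0, Fbn2 is highest at E13.5, and the other genes peak on average at E15.5.

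Elastin itself had the largest fold changes of the members other than Mfap5. Eln (ENSMUSG00000029675.12, chromosome 5, 134702593 to 134747323, minus strand, GRCm38) encodes tropoelastin, the soluble monomer of the elastic core. It was at 178, 138 and 230.1 CPM in the 3 libraries of E13.5 and at 133, 238 and 301 CPM in those of E14.5. At E15.5 it was at 856, 986 and 797 CPM, and every one of these libraries lay above every earlier one. Levels were 2197, 902 and 811 CPM at E16.5 and 1759, 1671 and 904 CPM at P0, so replicate 1 was high at E16.5 and replicate 3 low at P0, and these 2 stages overlapped. The rise from E14.5 to E15.5 was 3.92-fold (log2 fold change 1.97, SE 0.41, edgeR adjusted p = 0.00599), and that from E13.5 to P0 was 7.93-fold (2.99, SE 0.43, adjusted p = 0.000111). Both calls held in each of 15 fits without 1 library. The 7 smooth muscle and mural cell markers, cells that make elastin in vessel walls, moved in the same direction: their sum was 162.9 to 305.3 CPM at E14.5, 381.9 to 465.3 CPM at E15.5 and 648.5 to 754.4 CPM at P0. Of the 7, 2 (Tagln and Smtn) rose from E14.5 to E15.5 and 7 rose from E13.5 to P0. Of the marker lists for other cell types, some were higher at E15.5 and some lower. The sum of 6 osteoblast markers was 159 to 221 CPM at E14.5 and 1533 to 2172 CPM at E15.5, and 5 of the 6 rose, with a median log2 fold change of 3.31. That of 5 skeletal muscle markers was 181.5 to 840.4 CPM at E14.5 and 1332 to 3617 CPM at E15.5, and 3 of the 5 rose (median 2.24). Macrophage markers rose as well (3 of 4, median 0.84). Of 6 fibroblast and palate mesenchyme markers 3 rose and 0 fell (median 0.63). Epithelium (median 0.93) and endothelium markers (median 0.37) had 0 called. In the other direction, 6 chondrocyte markers had a median of -0.84 with 0 called. Of 6 brain and choroid plexus markers 3 fell and 0 rose (median -2.23), and of 4 tested lung and trunk markers 2 fell and 1 rose (median -3.97). The part of these cell types in the rise of Eln and of the other members was not tested.

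The microfibril genes went separate ways. Fbn2 (ENSMUSG00000024598.8, chromosome 18, 58008623 to 58209926, minus strand) encodes fibrillin-2, the fibrillin known mainly from embryonic tissue, and it was the one member to fall. It was at 619, 395 and 589.9 CPM at E13.5, at 224, 410.1 and 423 CPM at E14.5 and at 511, 545 and 425 CPM at E15.5. At E16.5 the libraries held 309, 273 and 271 CPM and at P0 248, 323 and 219 CPM, all below every library of E13.5 and of E15.5. The fall from E13.5 to P0 was 2.03-fold (log2 fold change -1.02, SE 0.24, edgeR adjusted p = 0.00346). Between E15.5 and E16.5 the log2 difference was -0.80 (SE 0.24) with adjusted p = 0.0997 in edgeR, although the libraries of both stages did not overlap, as for 15.5% of tested genes in that direction.

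Fbn1 (ENSMUSG00000027204.13, chromosome 2, 125300594 to 125507993, minus strand) encodes fibrillin-1, the main fibrillin of adult microfibrils. Its libraries held 326, 198 and 293 CPM at E13.5, 121, 205 and 247 CPM at E14.5, 349.6, 315 and 241 CPM at E15.5, 367, 236 and 222 CPM at E16.5 and 272, 425 and 161 CPM at P0. Every pair of neighbouring stages overlapped. The log2 difference from E13.5 to P0 was 0.07 (SE 0.35, edgeR adjusted p = 0.874), and its sign turned when single libraries were left out (-0.31 to 0.39).

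Mfap5 (ENSMUSG00000030116.14, chromosome 6, 122505845 to 122529290, plus strand) encodes MAGP-2, a small glycoprotein that binds to fibrillin microfibrils. It was the least abundant member per length at every stage and had the widest range. The E13.5 libraries held 1.45, 1.10 and 1.81 CPM, from 78 to 122 counts each, and those of E14.5 held 0.981, 2.04 and 7.21 CPM. Levels were 14.4, 11.2 and 10.95 CPM at E15.5, 88.2, 27.5 and 24.5 CPM at E16.5 and 61.4, 78.0 and 34.0 CPM at P0. E15.5 and E16.5 each lay wholly above the stage before, and P0 overlapped E16.5. From E13.5 to P0 the gene rose 38.9-fold (log2 fold change 5.28, SE 0.75, edgeR adjusted p = 0.000106). The step from E14.5 to E15.5 (1.82, SE 0.65) had adjusted p = 0.0544, and 0.00624 without E14.5 replicate 3, where the log2 difference was 2.97. It also passed without E16.5 replicate 1, in DESeq2, with upper-quartile scaling and with a minimum mean of 1 CPM.

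The 4 assembly genes code for proteins that guide tropoelastin onto microfibrils. Fbln5 (ENSMUSG00000021186.9, chromosome 12, 101746565 to 101819055, minus strand) and Efemp2 (ENSMUSG00000024909.14, chromosome 19, 5473973 to 5481853, plus strand) encode fibulin-5 and fibulin-4, related short fibulins that bind tropoelastin and lysyl oxidases. Both had their lowest mean at E14.5 and their highest at E15.5. In edgeR Fbln5 passed in this step (adjusted p = 0.0252) and Efemp2 did not (0.0656). For this pair the 250 bases before the RefSeq start nearest to each gene's start in the table are shown, 5′ to 3′ on the gene's strand (RefSeq, GRCm38.p6). Whether these sequences bear on the levels was not tested. Fbln5 lies at chr12:101819120-101819369, minus strand, and Efemp2 at chr19:5473696-5473945, plus strand. Capitals mark GGGCGG, the GC box core, on either strand.
Fbln5: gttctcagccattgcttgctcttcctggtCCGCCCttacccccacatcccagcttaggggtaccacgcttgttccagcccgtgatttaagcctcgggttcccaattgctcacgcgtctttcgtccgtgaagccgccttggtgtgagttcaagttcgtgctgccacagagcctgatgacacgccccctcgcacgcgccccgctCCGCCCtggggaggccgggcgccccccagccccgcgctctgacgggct
Efemp2: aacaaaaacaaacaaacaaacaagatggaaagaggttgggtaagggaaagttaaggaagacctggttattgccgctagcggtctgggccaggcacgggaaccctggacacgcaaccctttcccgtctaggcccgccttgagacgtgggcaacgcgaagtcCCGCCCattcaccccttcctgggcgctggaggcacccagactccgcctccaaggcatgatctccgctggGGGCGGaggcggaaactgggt
Each window holds 2 matches, at -221 and -48 in Fbln5 and at -90 and -21 in Efemp2, counted from the RefSeq start. Of 32841 RefSeq promoter windows of 250 bases, 32.7% held at least 1 match. The TATA box TATAAA (12.4% of windows), the AP-1 core TGANTCA (6.75%), the TEAD core GGAATG (12.6%) and the CArG box of serum response factor (1.47%), searched on both strands, had no match in either window. RefSeq entries matched 5 of the 10 genes.

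Fbln5 libraries held 68.4, 48.8 and 93.7 CPM at E13.5, 34.5, 68.7 and 96.0 CPM at E14.5 and 186, 157 and 132 CPM at E15.5. All E15.5 libraries lay above all earlier ones. At E16.5 the gene was at 180.0, 152 and 111 CPM and at P0 at 184, 156 and 93.2 CPM, with P0 replicate 3 just below the highest E13.5 library. The rise from E14.5 to E15.5 was 2.38-fold (log2 fold change 1.25, SE 0.36, edgeR adjusted p = 0.0252) and that from E13.5 to P0 2.05-fold (1.04, SE 0.36, adjusted p = 0.0268). Both calls rested on single libraries. The first was lost without E14.5 replicate 1 (adjusted p = 0.0993), E14.5 replicate 2 (0.0708), E15.5 replicate 1 (0.0651) or E15.5 replicate 2 (0.0628), and the second without E13.5 replicate 1 (0.0726), E13.5 replicate 2 (0.107), P0 replicate 1 (0.0894) or P0 replicate 2 (0.0634).

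Efemp2 varied within a narrower range. Its libraries held 91.0, 69.1 and 111 CPM at E13.5, 54.3, 80.9 and 102 CPM at E14.5, 131, 127 and 129 CPM at E15.5, 124, 101 and 114 CPM at E16.5 and 156, 75.7 and 114 CPM at P0. The E15.5 libraries lay above all earlier ones, but the log2 difference from E14.5 (0.71, SE 0.26) had adjusted p = 0.0656 in edgeR. It passed without E14.5 replicate 3, P0 replicate 1 or P0 replicate 2, which made 7, 6 and 6 members called in that step. It also passed in DESeq2, with upper-quartile scaling and with a minimum mean of 1 CPM.

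Ltbp4 (ENSMUSG00000040488.17, chromosome 7, 27305136 to 27337692, minus strand) encodes latent TGF-beta binding protein 4, which helps to place fibulin-5 on microfibrils. Among the 10 genes it had the smallest p-values at both called comparisons. The libraries held 77.9, 53.1 and 82.2 CPM at E13.5, 69.4, 97.3 and 114 CPM at E14.5, 226, 254 and 238 CPM at E15.5, 388, 261 and 261 CPM at E16.5 and 362, 325 and 241 CPM at P0. No library from E15.5 on overlapped any earlier one. The rise was 2.56-fold from E14.5 to E15.5 (log2 fold change 1.36, SE 0.23, edgeR adjusted p = 0.0025) and 4.36-fold from E13.5 to P0 (2.12, SE 0.24, adjusted p = 2.27e-05), and both calls held in 15 of 15 fits without 1 library.

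Emilin1 (ENSMUSG00000029163.9, chromosome 5, 30913402 to 30921277, plus strand) encodes a glycoprotein at the boundary of elastin and microfibrils. It was the most abundant member per length at E13.5 and E14.5. Libraries held 338, 227 and 392 CPM at E13.5, 121, 253 and 290.0 CPM at E14.5, 444, 356 and 328 CPM at E15.5, 308.5, 274 and 302 CPM at E16.5 and 377, 182 and 230.3 CPM at P0. The E15.5 libraries lay above those of E14.5 and overlapped those of E13.5. The log2 difference from E14.5 to E15.5 was 0.76 (SE 0.32, edgeR adjusted p = 0.0995), and that from E13.5 to P0 was -0.28 (SE 0.32, adjusted p = 0.478).

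Both crosslinking genes rose. Lox (ENSMUSG00000024529.13, chromosome 18, 52516069 to 52529867, minus strand) encodes lysyl oxidase, the copper enzyme that oxidises lysines of elastin and collagen. It was at 175, 140.5 and 197 CPM at E13.5 and at 84.7, 156 and 250.4 CPM at E14.5, the widest spread of its stages. At E15.5 the libraries held 347, 398 and 414.5 CPM, above every earlier library. They held 219, 291 and 359.6 CPM at E16.5 and 325, 376 and 369 CPM at P0, and E16.5 replicate 1, the highest library of its stage for Eln, was the lowest for Lox. The rise was 2.36-fold from E14.5 to E15.5 (log2 fold change 1.24, SE 0.31, edgeR adjusted p = 0.0124, at most 0.0484 without any 1 library) and 2.09-fold from E13.5 to P0 (1.06, SE 0.30, adjusted p = 0.0102).

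Loxl1 (ENSMUSG00000032334.10, chromosome 9, 58287738 to 58313186, minus strand) encodes lysyl oxidase-like 1, which is tied to elastin turnover and binds fibulin-5. Its libraries held 44.6, 32.2 and 51.6 CPM at E13.5, 32.4, 52.7 and 69.0 CPM at E14.5, 109, 114.5 and 100.2 CPM at E15.5, 166, 93.5 and 106 CPM at E16.5 and 149.5, 121 and 106 CPM at P0. All libraries from E15.5 on were above all earlier ones. The rise from E14.5 to E15.5 was 2.10-fold (log2 fold change 1.07, SE 0.28, edgeR adjusted p = 0.0158), and it did not pass without E14.5 replicate 1 (adjusted p = 0.0714), E14.5 replicate 2 (0.0503) or E15.5 replicate 2 (0.0532). The rise from E13.5 to P0 was 2.93-fold (1.55, SE 0.28, adjusted p = 0.000589).

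Set side by side, the steps differed in how many members passed. From E13.5 to E14.5 edgeR called 0 of 10, with 1 (Fbn2, log2 difference -0.60) at an unadjusted p under 0.05, DESeq2 called 0, and 0.00903% of tested genes were called. From E14.5 to E15.5, where 26.1% of tested genes were called in either direction, the median log2 fold change of the 10 genes was 1.15, beside 0.03 over all tested genes. The E15.5 libraries lay wholly above those of E14.5 for 9 of the 10, all but Fbn1, and for 24% of tested genes. With upper-quartile scaling the median over all genes in this step moved to 0.16, and the split of all calls moved from 2803 higher and 2970 lower to 3424 higher and 2007 lower. Under that scaling 7 members rose, Mfap5 and Efemp2 in addition. From E15.5 to E16.5 edgeR called 0 of 10 (2 at an unadjusted p under 0.05, Fbn2 lower and Mfap5 higher, both called by DESeq2), beside 1.41% of tested genes. From E16.5 to P0 edgeR called 0, 0 had an unadjusted p under 0.05 and DESeq2 called 0, beside 0.352% of tested genes. The median over the 10 genes was -0.07 from E13.5 to E14.5, -0.12 from E15.5 to E16.5 and 0.04 from E16.5 to P0.

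The count of 5 in the step to E15.5 rested in part on single libraries. It was 3 (Eln, Ltbp4 and Lox) without E14.5 replicate 1, the library highest in brain and trunk markers. The same 3 genes were called without E14.5 replicate 2 or E15.5 replicate 2. Without E14.5 replicate 3 the count was 7. The brain and choroid plexus sum lay higher in every E14.5 library (2008 to 4108 CPM) than in any E15.5 library (593.1 to 1208 CPM). Leaving out 1 library therefore does not remove this difference between the stages, and its part in the calls was not tested. With E13.5 in place of E14.5 as the earlier stage, a comparison added after seeing the data, 6 members rose to E15.5 (the 5 and Mfap5), beside 22.9% of tested genes called in either direction.

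**Figure D2:**
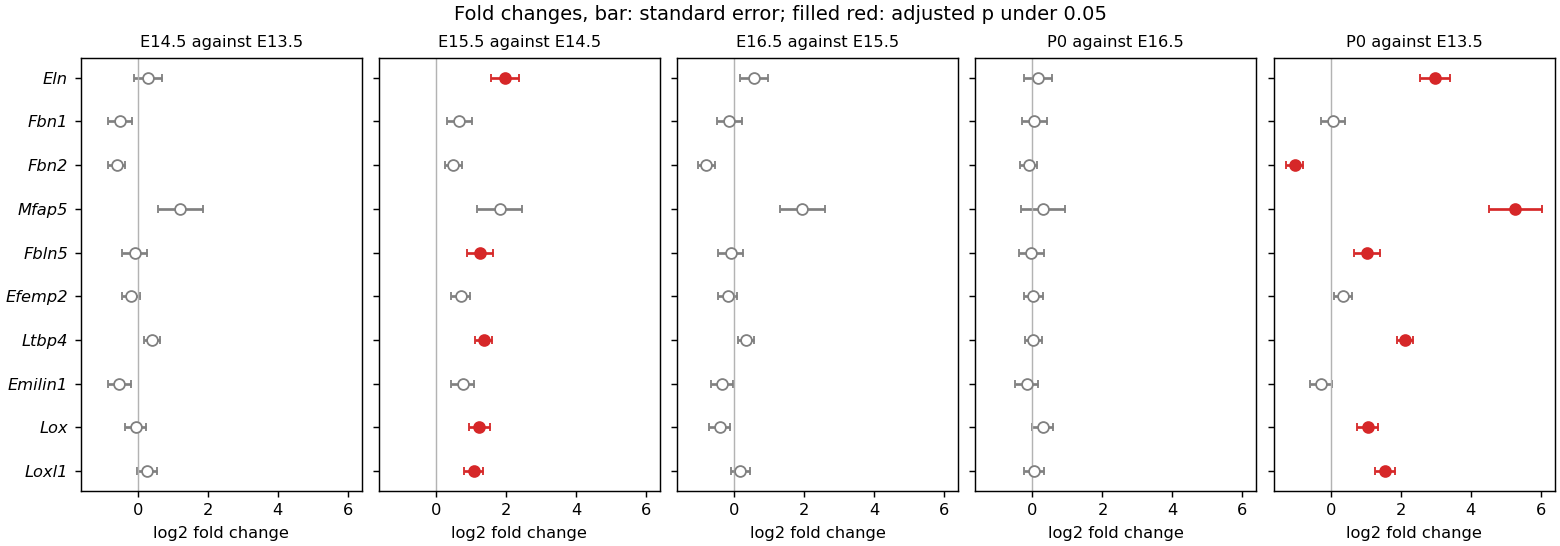
Log2 fold change of the 10 genes in 5 comparisons of stages; bars are standard errors and filled red points have an adjusted p under 0.05 in edgeR. Red points appear in the step from E14.5 to E15.5 (5 genes, all higher) and between E13.5 and P0 (6 higher and 1 lower), and none in the other 3 comparisons.

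The order of levels per exon length changed with age. At E13.5 Emilin1 led with 64.6 ± 17.1 CPM per kb (SD, n = 3), followed by Fbn2 (51.0 ± 11.6), Lox (35.5 ± 6.0), Efemp2 (34.1 ± 7.9), Eln (22.5 ± 5.7) and Fbn1 (22.4 ± 5.5), and each of these overlapped its neighbour. Loxl1, Ltbp4 and Fbln5 followed, between 12.98 and 10.17 CPM per kb and also overlapping, and Mfap5 was last at 0.405 ± 0.099. At E14.5 the ranges of all neighbours from Emilin1 (44.8 ± 18.1) down to Fbln5 (9.61 ± 4.46) overlapped. At E15.5 Eln stood first at 108.6 ± 11.9 CPM per kb, above the range of Lox (80.3 ± 7.4), which overlapped Emilin1 (76.1 ± 12.2). Eln also led without overlap at E16.5 (160.9 ± 95.7) and P0 (178 ± 58.1), where Lox came next at 60.3 ± 14.7 and 74.2 ± 5.8. Ltbp4 moved from rank 8 at E13.5 to rank 4 at P0, and Fbn2 from rank 2 to rank 7.

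Expressed as a share of the summed level of the 10 genes, the make-up moved from Fbn2 and Emilin1 towards Eln. The sum itself had stage means of 265 ± 60.1, 226 ± 83.7, 482 ± 28.5, 492 ± 135 and 521 ± 106 CPM per kb (SD, n = 3) in order of age. Eln made up 8.48% ± 0.65, 12.2% ± 0.12, 22.5% ± 1.5, 31.0% ± 9.6 and 33.6% ± 5.3 of it at the 5 stages in turn. Fbn2 went from 19.3% ± 1.5 at E13.5 to 9.75% ± 0.68 at E15.5 and 4.88% ± 0.92 at P0. The share of Eln in E13.5 and E14.5 libraries never reached that in a later library, and the reverse held for Fbn2. Emilin1 went from 24.3% ± 1.0 to 10.3% ± 3.1, Ltbp4 from 4.16% ± 0.10 to 9.20% ± 0.03, and Mfap5 from 0.153% ± 0.009 to 3.04% ± 0.84. Shares add up to a fixed total, so that of one gene falls when another rises.

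**Figure D3:**
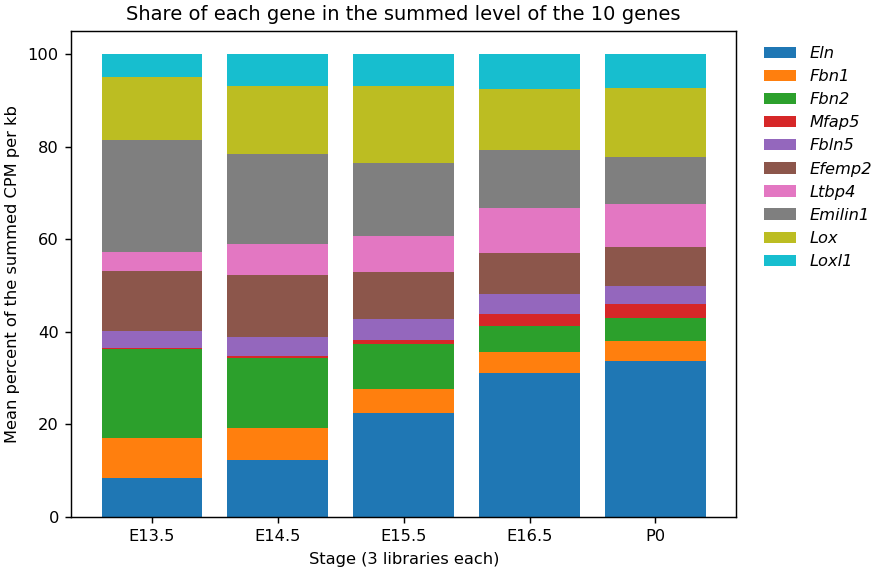
Mean percent of the summed CPM per kb of the 10 genes held by each gene, by stage (3 libraries each, stacked bars). The Eln segment grows from 8.48% at E13.5 to 33.6% at P0, and the Fbn2 segment shrinks from 19.3% to 4.88%.

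Ratios of paired genes within a library were compared between the 6 libraries of E13.5 and E14.5 and the 9 of E15.5, E16.5 and P0, a grouping chosen with earlier results of these data known. All 4 ratios below are of CPM per kb, tested on the log2 scale with a pseudocount of 0.1 CPM by an exact two-sided permutation test over libraries, with p-values adjusted over the 4 ratios. The split lies at the step at which Eln, Lox, Loxl1 and Fbln5 were called, so these p-values describe the split and are no independent support. The test shuffles single libraries and takes no account of the stages within each group.

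Fbn1 transcripts gained on those of Fbn2. The ratio of Fbn1 to Fbn2 had stage means of 0.439 ± 0.014, 0.467 ± 0.036, 0.527 ± 0.056, 0.826 ± 0.174 and 0.908 ± 0.252 (SD, n = 3) in order of age, from E13.5 to P0. The later libraries were 1.60-fold higher (log2 difference 0.68, exact permutation p = 0.0012, adjusted p = 0.0024), in a range from 0.490 to 1.14 that overlapped the earlier range of 0.429 to 0.504. The 3 libraries of E15.5 (0.591, 0.499 and 0.490) still lay close to the earlier ones, and E14.5 against E15.5 alone differed by 0.17 on the log2 scale.

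The ratio of Fbln5 to Efemp2 had stage means of 0.294 ± 0.027, 0.310 ± 0.060, 0.470 ± 0.075, 0.502 ± 0.112 and 0.518 ± 0.246 (SD, n = 3) in order of age, from E13.5 to P0. It was 1.60-fold higher in the later libraries (log2 difference 0.68, exact permutation p = 0.002, adjusted p = 0.00266). The later range of 0.314 to 0.791 overlapped the earlier range of 0.244 to 0.361 through P0 replicate 3.

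Lysyl oxidase transcripts fell behind those of its substrate. The ratio of Lox to Eln had stage means of 1.60 ± 0.14, 1.19 ± 0.18, 0.745 ± 0.113, 0.486 ± 0.294 and 0.459 ± 0.201 (SD, n = 3) in order of age, from E13.5 to P0. Earlier libraries lay between 1.07 and 1.72 and later ones between 0.168 and 0.875, with no overlap, and the lowest value was that of E16.5 replicate 1. The later libraries were 2.71-fold lower (log2 difference -1.44, exact permutation p = 0.0004, the smallest that 6 against 9 libraries can give, adjusted p = 0.0016). Both genes rose from E14.5 to E15.5, Eln by 3.92-fold and Lox by 2.36-fold.

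Between the enzymes, the ratio of Loxl1 to Lox did not pass the test. It had stage means of 0.363 ± 0.024, 0.485 ± 0.079, 0.411 ± 0.054, 0.669 ± 0.381 and 0.520 ± 0.134 (SD, n = 3) in order of age, from E13.5 to P0, with E16.5 replicate 1 at 1.11 and the other libraries of that stage at 0.469 and 0.430. The log2 difference was 0.26 (exact permutation p = 0.262, adjusted p = 0.262).

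**Figure D4:**
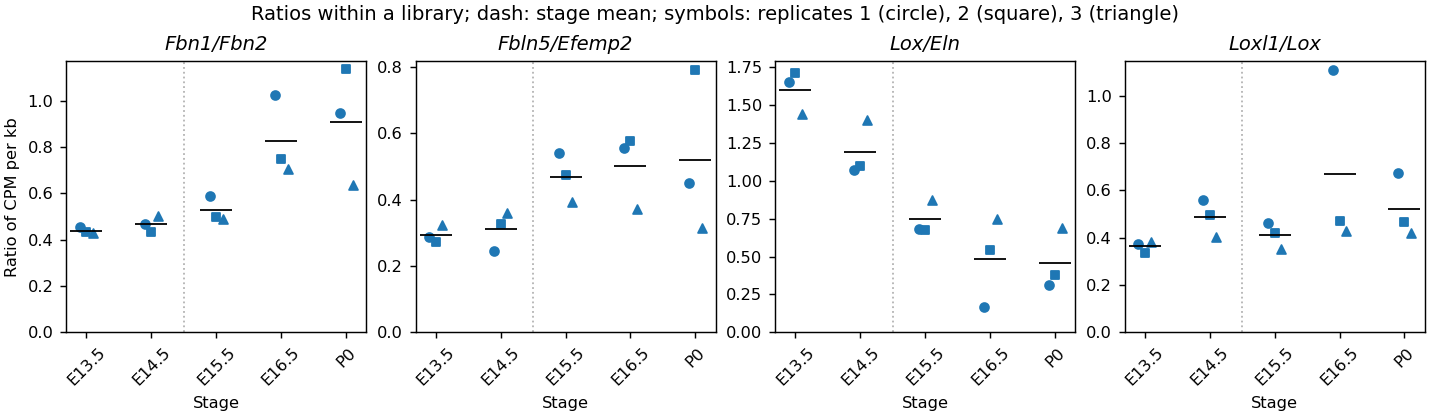
Ratios of CPM per kb within each library for 4 pairs of genes, by stage; symbols mark replicates 1 (circle), 2 (square) and 3 (triangle), dashes are stage means and the dotted line separates the earlier from the later stages. The Lox to Eln ratio lies above 1.07 in every earlier library and at or below 0.875 in every later one, and the other 3 ratios overlap across the line.

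The 5 further lists of genes around the elastic fibre were counted in the same fit and held 52 genes, of which 49 passed the filter on low counts. From E14.5 to E15.5, 14 of the 49 rose and 0 fell, where 12.7% and 13.4% of tested genes did. From E13.5 to P0, 23 rose and 6 fell, beside 29.8% and 26.8% of tested genes. From E13.5 to E14.5 edgeR called 0 (6 at an unadjusted p under 0.05, 2 by DESeq2), from E15.5 to E16.5 it called 4 (Adamtsl4, Mmp9, Ctsk and Itgb3, all higher, beside 1.41% of tested genes), and from E16.5 to P0 it called 0 (5 at an unadjusted p under 0.05, 0 by DESeq2). Leaving out single libraries changed these counts. Over 15 fits without 1 library the lists held 6 to 20 calls from E14.5 to E15.5, 0 to 5 from E15.5 to E16.5 and 24 to 32 from E13.5 to P0. The lowest count to E15.5 came without E14.5 replicate 1 and the highest without E16.5 replicate 1. Of the 14, 6 (Adamtsl4, Loxl4, Postn, Ctsk, Lgals3 and Itgb3) kept their call in each of 6 fits without 1 library of the contrast, and 6, 8, 12, 10, 8 and 8 kept it without E14.5 replicates 1, 2 and 3 and E15.5 replicates 1, 2 and 3. Without E14.5 replicate 3, 7 further genes passed (Colgalt1, Fbln1, Fn1, Itgb1, Ltbp1, Mfap4 and Mmp2), which made 19 in all. Of the 29 called between E13.5 and P0, 20 kept their call in all 6 fits, and 23 to 27 in each, while Emilin2, Emilin3, Thsd4 and Tll2 passed in 1 or 2 of these fits. The totals can also hold an elastin-degrading enzyme that passed the filter on low counts only without that library. Of the 4 called from E15.5 to E16.5, 0 remained without E15.5 replicate 2, E15.5 replicate 3 or E16.5 replicate 1, and 4 remained without E16.5 replicate 3, where Thsd4 passed too.

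Among 19 other microfibril and elastic fibre proteins, 4 rose from E14.5 to E15.5 and 0 fell, with a median log2 fold change of 0.50. The largest was that of Adamtsl4, which codes for a protein that binds fibrillin-1 and aids microfibril formation. It went from 1.59 ± 0.51 CPM (SD, n = 3) at E14.5 to 7.04 ± 1.28 CPM at E15.5 (log2 fold change 2.12, SE 0.42, edgeR adjusted p = 0.00475) and 32.1 ± 10.6 CPM at P0. Ltbp2, a latent TGF-beta binding protein family member found on microfibrils, went from 17.2 ± 11.4 to 68.0 ± 13.3 CPM (1.98, SE 0.61, adjusted p = 0.0311, up to 0.107 without 1 library). Ltbp3 (0.90) and Emilin2 (0.73), also higher, had adjusted p of 0.0243 and 0.0487, and of up to 0.115 and 0.192 without 1 library. From E13.5 to P0 the list split into 4 higher and 4 lower (median -0.26), led by Adamtsl4 (4.54), Ltbp2 (3.27), Efemp1 (-1.13) and Adamts17 (-0.95). Of these 8 genes, 3 kept their call in each of 6 fits without 1 library of the contrast: Ltbp2 and Adamtsl4, higher, and Adamts10, lower. Efemp1, a relative of the short fibulins, had adjusted p = 0.0174 and up to 0.0626 without 1 library. Mfap2, which codes for the MAGP-1 protein of microfibrils, was at 245 ± 49.8 CPM at E13.5 and 206 ± 48.2 CPM at P0 (log2 difference -0.25, adjusted p = 0.367). Fbln1, Fbln2 and Fn1 also did not pass in either comparison, although Fbln1 (adjusted p = 0.0378) and Fn1 (0.0411) passed from E14.5 to E15.5 without E14.5 replicate 3.

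Of 10 genes for other lysyl oxidases and their maturation, 3 rose to E15.5 and 0 fell (median 0.33). Loxl4, which codes for a lysyl oxidase-like enzyme, changed most. It was at 2.50 ± 1.21 CPM at E13.5, 3.08 ± 0.65 CPM at E14.5 and 27.6 ± 4.5 CPM at E15.5 and stayed at 31.1 ± 14.5 and 28.4 ± 8.7 CPM at E16.5 and P0. Its log2 fold change to E15.5 was 3.15 (SE 0.42, edgeR adjusted p = 0.000734). Postn, which codes for periostin, a matrix protein that promotes the activation of lysyl oxidase by BMP1, rose from 642 ± 249 CPM at E14.5 to 2070.0 ± 467 CPM at P0 (log2 fold change to E15.5 of 1.19, SE 0.29, adjusted p = 0.0124), and Loxl2 rose by 1.10 (adjusted p = 0.0204, up to 0.0857 without 1 library). Bmp1 itself, the protease that cleaves the lysyl oxidase propeptide, was at 273 ± 53.6 CPM at E13.5 and 270.4 ± 66.5 CPM at P0 and did not pass. From E13.5 to P0, 5 of the list rose and 2 fell. Those that fell were Atp7a, the pump that loads lysyl oxidases with copper (-1.52, adjusted p = 0.00892), and the BMP1 relative Tll1 (-1.16, adjusted p = 0.00105). Atox1, the chaperone that hands copper to this pump, rose by 1.09 (adjusted p = 0.000238).

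The 7 genes for lysyl hydroxylation and collagen folding held 2 that rose to E15.5 (median 0.71), Fkbp10 (1.20, edgeR adjusted p = 0.0144, 0.0635 without E14.5 replicate 1) and the collagen chaperone Serpinh1 (0.85, adjusted p = 0.0422, up to 0.173 without 1 library). From E13.5 to P0, 3 rose and 0 fell: the transglutaminase Tgm2 (2.55), Fkbp10 (1.14) and Plod1 (0.72, adjusted p = 0.0365, up to 0.184 without 1 library).

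Enzymes that can degrade elastin rose over the same stages. Of 8 listed, Mmp7, Mmp12 and Elane did not pass the filter, with at most 12 counts in any library. Of the 5 tested, 3 rose to E15.5 and 5 rose from E13.5 to P0, and none fell. Ctsk, which codes for the osteoclast protease cathepsin K, was at 24.2 ± 7.1 CPM at E13.5, 23.6 ± 10.8 CPM at E14.5, 135 ± 45.2 CPM at E15.5, 664 ± 222 CPM at E16.5 and 1255 ± 424 CPM at P0. Its log2 fold change was 2.51 (SE 0.40, edgeR adjusted p = 0.00171) to E15.5 and 5.69 (SE 0.46, adjusted p = 3.96e-06) from E13.5 to P0. Ctss (0.56, adjusted p = 0.0154) and Mmp9 (1.20, adjusted p = 0.0403) also passed in the step to E15.5, with adjusted p of up to 0.0851 and 0.202 without 1 library. Mmp9, the gelatinase of osteoclasts and neutrophils, went from 13.7 ± 1.0 CPM at E13.5 to 888 ± 341 CPM at P0 (6.02, SE 0.48, adjusted p = 3.74e-06), and the lysosomal proteases Ctss and Ctsl rose by 1.59 and 1.33 on the log2 scale between these stages. From E15.5 to E16.5 both were called higher (2.50 for Mmp9, 2.30 for Ctsk), with adjusted p of up to 0.133 and 0.154 without 1 library. The sum of 4 macrophage markers also went up, from 37.8 to 55.7 CPM at E13.5 to 194 to 321 CPM at P0, and 4 of the 4 rose. Their part in these changes was not tested.

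Among 8 genes for receptors of elastin and fibulins, 2 rose to E15.5 and 6 from E13.5 to P0, and 0 fell in either. Lgals3, which codes for galectin-3, a lectin that binds elastin peptides, was at 1.26 ± 0.48 CPM at E13.5, 2.42 ± 1.24 CPM at E14.5, 46.3 ± 25.3 CPM at E15.5 and 143 ± 33.0 CPM at P0 (log2 fold change 4.24 to E15.5, SE 0.53, edgeR adjusted p = 0.000544, and 6.79 from E13.5 to P0). Itgb3, the integrin beta 3 chain, went from 9.10 ± 1.64 CPM at E14.5 to 21.8 ± 0.9 CPM at E15.5 (1.25, SE 0.21, adjusted p = 0.00218) and 83.5 ± 23.5 CPM at P0. Glb1, Neu1 and Ctsa, which also code for lysosomal enzymes, rose together from E13.5 to P0, by 1.49, 1.01 and 1.05 on the log2 scale (edgeR adjusted p = 0.000107, 6.52e-05 and 0.000418). Counts per gene do not separate the transcripts of Glb1 for the enzyme from those for the elastin binding protein. Galectin-3 and the integrin beta 3 chain are also made by macrophages and osteoclasts.

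**Figure D5:**
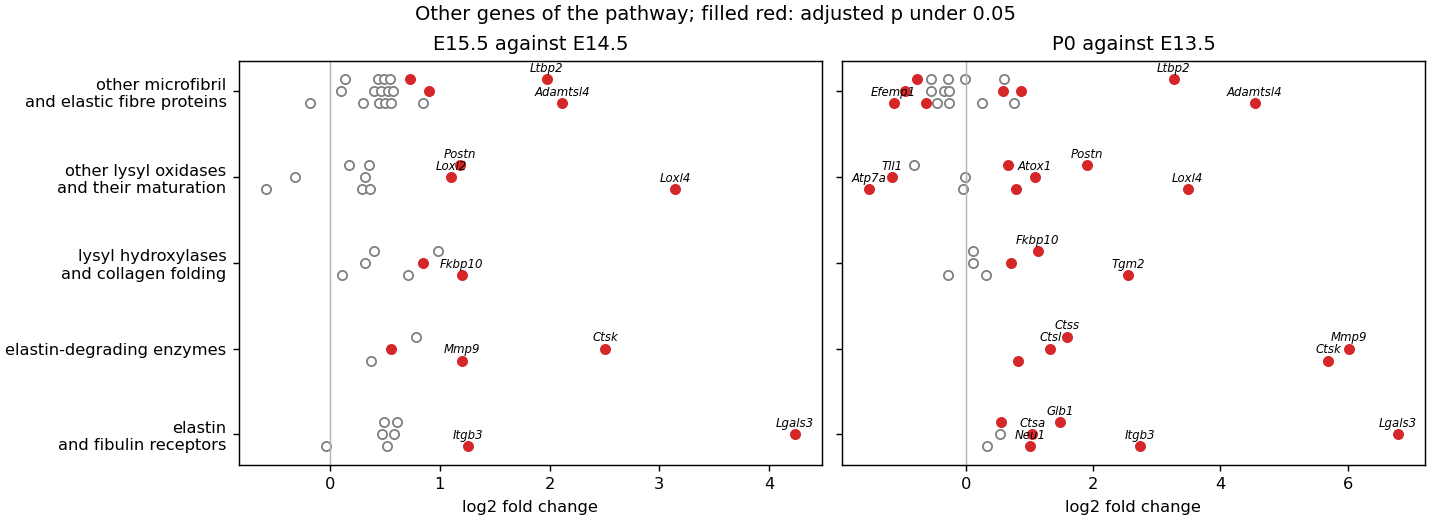
Log2 fold change of each tested gene of the 5 further lists from E14.5 to E15.5 (left) and from E13.5 to P0 (right); filled red points have an adjusted p under 0.05 in edgeR, and called genes with a log2 change of more than 1 in either direction are named. All red points on the left lie above 0, and on the right 6 lie below 0, in the microfibril and lysyl oxidase lists.

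The genes whose course was most like that of 4 members were taken by Pearson's r of log2 CPM over the 15 libraries, among 11855 other genes with a mean of at least 10 CPM. The 15 libraries differ in stage and depth, so the values are a description. For Eln the nearest gene was another member, Ltbp4 (r = 0.989), followed by Aoc3 (0.987), Cavin1 (0.984), Bace2 (0.983) and Hp (0.982). For Fbn1 they were Fzd4 (0.962), Ppm1m (0.928), Axl (0.893), Aldh9a1 (0.890) and She (0.889), and no member was among them. Fbn2 was nearest to Dnmbp (0.934), Ednra (0.922), Pdgfra (0.920), Dock1 (0.919) and Tnfaip8 (0.918). Lox was nearest to Slc44a1 (0.945), Antxr1 (0.932), Galnt5 (0.931), Myof (0.929) and Mylk (0.929).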

How the data were processed

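Gene expression was measured by bulk RNA-seq of whole palates. The deposited counts per gene were made by the authors with featureCounts 2.0.1 on GENCODE M18, counting read pairs on the reverse strand, per the file headers; the submitters' processing notes list cutadapt 3.4, HISAT2 2.2.1, Bowtie2, SAMtools 1.12 and Subread 2.0.1 and the build mm10 (GRCm38), without their roles. Positions and exon lengths are those of the table. Symbols came from GENCODE M21, which matched 54165 of 54232 genes, and 211 shared a symbol. No 2 libraries held identical counts.

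Counts were filtered with filterByExpr (minimum count 10, 22151 genes kept), scaled by TMM, and modelled for all 15 libraries at once with edgeR 4.0.16 under R 4.3.3, each stage having its own coefficient. The quasi-likelihood F test was adjusted by Benjamini-Hochberg over all tested genes with a threshold of 0.05, and fold changes used a prior count of 2. DESeq2 1.42.0, other scalings and filters, a replicate block, fits of 6 libraries and fits without each library were alternatives. The fit was tested on simulated data, with changes from E14.5 to E15.5 set in genes drawn from all tested genes. It called 19.4% of 67 genes set to rise 2-fold, 59.7% of 67 at 4-fold and 83.3% of 66 at 8-fold. Of 21951 unchanged genes it called 4. The share of changed genes was far smaller than the 26.1% called in the real step, so the adjustment was stricter. The changed genes could also have any level that passed the filter. These rates need not hold for the 10 genes, but a gene that did not pass may still have changed, above all by 2-fold or less. Exact permutation tests used scipy 1.17.1. Strand-specific counting keeps genes on the opposite strand apart from Eln and Fbn1.

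The 10 genes, the lists, the tests and the alternatives were chosen with earlier results of these data known. Named genes were the 10 members, up to 4 called genes per further list and comparison with the largest log2 fold change and genes needed to account for a count, and the 5 genes most like each of 4 members. Mfap2, Bmp1, Neu1, Atox1 and the genes that passed only without single libraries, with Fbln2, were named outside this rule after their values were seen.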

Additional observations from a re-analysis of the deposited data

How the results depend on the processing

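The lowest library value among the 10 genes was 63 counts (Mfap5). The shallowest library, P0 replicate 3 (21.5 M counts), was the lowest of its stage for 7 of 10. It also stood apart in muscle and epithelium markers, and the effects of depth and of tissue make-up were not tested. Across all alternatives run, the members called from E13.5 to P0 were 6 or 7 and those called over the 5 stages 7 or 8, against 7 each. In the step from E14.5 to E15.5, 3 were called in a fit of those 6 libraries alone (Eln, Ltbp4 and Loxl1) and 3 to 7 without each replicate in turn, against 5. DESeq2 called 2 members from E15.5 to E16.5. DESeq2, upper-quartile scaling and a minimum mean of 1 CPM (16520 genes) each called 7 to E15.5, the 5 with Mfap5 and Efemp2 added. The cause of these shifts was not tested. With the replicate block the counts were 0, 5, 0, 0 and 7 in the 5 comparisons and 7 over all stages, the same genes as without it. In none of 10 pairs of stages were all 3 correlations of same-numbered deviations above 0.1. Single correlations were higher, such as 0.548 between E13.5 and E14.5 for replicate 3 and 0.538 between E15.5 and P0 for replicate 1. Whether libraries with the same number share more than that number was not tested further.

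Signs turned only for differences that did not pass. With no filter on low counts, the log2 differences from E16.5 to P0 of Efemp2, Ltbp4 and Loxl1 were -0.0214, -0.0168 and -0.008, and in the fit of 6 libraries that of Fbln5 was 0.0046. With E13.5 in place of E14.5, that of Fbn2 to E15.5 was -0.11. Without each replicate in turn the ranges crossing 0 were, from E13.5 to E14.5, -0.44 to 0.23 (Fbln5), -0.42 to 0.0197 (Efemp2), -0.50 to 0.25 (Lox) and -0.0046 to 0.51 (Loxl1); from E15.5 to E16.5, -0.0551 to 0.82 (Eln), -0.28 to 0.0717 (Fbln5) and -0.13 to 0.33 (Loxl1). From E16.5 to P0 they were -0.10 to 0.75 (Eln), -0.36 to 0.34 (Fbn1), -0.30 to 0.0027 (Fbn2), -0.0041 to 1.15 (Mfap5), -0.24 to 0.20 (Fbln5), -0.26 to 0.24 (Efemp2), -0.10 to 0.24 (Ltbp4), -0.52 to 0.0223 (Emilin1) and -0.12 to 0.33 (Loxl1), and from E13.5 to P0 -0.31 to 0.39 (Fbn1). With E14.5 against E15.5 alone, the log2 difference of the Fbn1 to Fbn2 ratio was 0.17, that of Lox to Eln -0.68 and that of Loxl1 to Lox -0.24, a turned sign. The first 3 ratios reported kept their call without each replicate in turn.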
